A study of Caenorhabditis elegans with 15 samples.

Results

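The 8 genes described here lie close together on chromosome IV of Caenorhabditis elegans, with 7 other tested genes among them, and were chosen by their transcript levels: each was about 2-fold higher in *sma-6* mutant larvae than in wild-type larvae. They are *F35G2.2*, *phy-2*, *dnj-26*, *Y39C12A.9*, *sre-14*, *C42C1.11*, *C42C1.12* and *hpo-12*, 8 of the 16259 genes in the deposited count table, and all 8 passed the filter on low counts that left 13720 genes. Because that comparison selected them, their rise in *sma-6* mutants over WT is a description, and the calls and tests given for it below support nothing. The question put to the data was whether the rise was the same for every gene and every library, as an extra copy of the region in the strain would give, or graded. DNA copy number was not measured in these libraries. The 8 genes lay inside a longer stretch, whose limits were drawn by the calls themselves. In it 22 of 24 consecutive tested genes, over 165.3 kb, were called higher in *sma-6* mutants, with a median fold of 1.96. Those 22 include the 8 chosen genes, and over all tested genes 3.00% were called higher. The 23 tested genes examined to the left of the stretch had a median log2 fold change of 0.01, and the 18 to its right 0.09. Single genes among them ran from -0.83 to 0.58.

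Poly-A RNA came from whole animals at the L2 larval stage, fed on E. coli at 20 degrees, in 3 genotypes with 5 libraries each. The groups were *sma-6* mutants, *sma-3* mutants and N2, the wild-type laboratory strain, abbreviated WT. The labels gave no allele, strain name or outcrossing for the mutants, and nothing on whether libraries came from separate cultures, so each p-value measures only the spread between these libraries. Both mutated genes act in DBL-1 signalling, the branch of bone morphogenetic protein signalling that sets body size in this worm: *sma-6* encodes the type I receptor, and *sma-3* a Smad that carries the signal to the nucleus.

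The selected genes have unlike roles. *phy-2* encodes a catalytic subunit of collagen prolyl 4-hydroxylase, the enzyme that modifies collagen chains in the endoplasmic reticulum before they are secreted into the cuticle. *dnj-26* encodes a protein with a DnaJ domain, the part of co-chaperones that engages Hsp70. *sre-14* belongs to the serpentine receptors of class e, chemoreceptor-like membrane proteins. *C42C1.11* carries the name *ltah-1.1* in the annotation, for its likeness to leukotriene A4 hydrolase, an aminopeptidase-type enzyme. *hpo-12* is named for a hypersensitivity to pore-forming toxin. *F35G2.2* is *marb-1* in the annotation, and *Y39C12A.9* and *C42C1.12* carry sequence names only. When the number of copies of a chromosome segment changes, transcripts from that segment commonly change together by a similar factor, whatever the genes do.

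Coordinates are those of WBcel235, the build named in the submitters' processing notes. All 8 genes are protein-coding on chromosome IV. From left to right they are *F35G2.2* (WBGene00009436, 12208190 to 12209010, minus strand), *phy-2* (WBGene00004025, 12211097 to 12215987, minus), *dnj-26* (WBGene00001044, 12251093 to 12252679, minus) and *Y39C12A.9* (WBGene00012710, 12257525 to 12259211, minus). They continue with *sre-14* (WBGene00016579, 12259793 to 12261453, minus), *C42C1.11* (WBGene00016589, 12279622 to 12281913, plus), *C42C1.12* (WBGene00016590, 12281668 to 12282207, minus) and *hpo-12* (WBGene00016588, 12283173 to 12285122, plus). Together they span 76.93 kb. *C42C1.11* and *C42C1.12* overlap by 246 bases on opposite strands. *hpo-12* lies wholly within *C42C1.19*, a gene of the same strand in the annotation used here that the count table does not list. Reads from such overlaps may have been left uncounted or assigned to either gene, so those values are uncertain to that extent.

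Library totals ran from 19.7 to 22.4 M counts in *sma-6* mutants, from 16.9 to 24.2 M in *sma-3* mutants and from 16.5 to 48.3 M in WT. The *sma-6* transcript itself stood between 8.83 and 9.75 CPM (counts scaled to TMM-normalized library size) in *sma-6* libraries, against 37.2 to 47.7 CPM in WT libraries. The *sma-3* transcript stood between 8.86 and 10.8 CPM in *sma-3* libraries, against 22.6 to 32.5 CPM in WT libraries, so both mutants matched their labels. The *sma-6* transcript was also below WT in the *sma-3* libraries, at 23.2 to 27.0 CPM. In the *sma-6* libraries the *sma-3* transcript stood at 21.8 to 25.4 CPM. The sample-sheet numbers of each genotype formed 1 unbroken series of their own, so processing order and genotype cannot be told apart. Markers of epidermis, intestine, pharynx, neurons and germline overlapped between *sma-6* and WT libraries in summed level. The 4 body-wall muscle markers summed to 10873 to 13074 CPM in *sma-6* libraries, against 8250 to 10758 CPM in WT libraries. *unc-54*, a muscle myosin, was the 1 marker called higher, by 0.43 on the log2 scale, and *rol-6* of the epidermis and *elt-2* of the intestine were called lower, at -0.53 and -0.36. Their part in the results below was not tested. The 6 yolk protein genes summed to 20.7 CPM in *sma-6* replicate 3, the library with the highest *phy-2* level, and to between 3.97 and 6.03 CPM in the other *sma-6* libraries. They summed to 234.6 CPM in WT replicate 3 and to between 5.61 and 7.80 CPM in the other WT libraries.

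*phy-2* was at 203, 197, 253, 169 and 198 CPM in the *sma-6* libraries, at 97.0, 82.2, 93.7, 73.8 and 95.4 CPM in the *sma-3* libraries, and at 97.9, 96.0, 95.2, 97.6 and 99.0 CPM in the WT libraries. Every *sma-6* library lay above every other library. The means were 204 ± 30.6 CPM in *sma-6* mutants, 88.4 ± 10.03 CPM in *sma-3* mutants and 97.1 ± 1.53 CPM in WT (SD, n = 5 each). The fitted fold of *sma-6* mutants over WT was 2.10, with a 95% interval from 1.84 to 2.40. In whole-animal RNA, more cells of a type and more RNA per cell cannot be told apart, here and in all values that follow.

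*C42C1.11* was at 111, 104, 116, 109 and 112 CPM in the *sma-6* libraries and at 48.8, 52.9, 46.8, 49.2 and 48.9 CPM in the WT libraries. It was between 49.4 and 59.3 CPM in the *sma-3* libraries. Its fold over WT was 2.24 (95% interval 2.06 to 2.44), the single interval among the 8 genes that did not hold 2-fold. *F35G2.2* was at 112, 111, 110.1, 115 and 117 CPM in the *sma-6* libraries and at 53.1, 57.6, 60.6, 52.9 and 51.4 CPM in the WT libraries, with 48.7 to 55.4 CPM in the *sma-3* libraries. Its fold was 2.05 (1.89 to 2.22). *hpo-12* was at 79.3, 78.1, 84.1, 71.1 and 76.6 CPM in the *sma-6* libraries and at 39.9, 39.7, 36.6, 37.7 and 37.5 CPM in the WT libraries, with 30.2 to 38.5 CPM in the *sma-3* libraries. Its fold was 2.03 (1.84 to 2.25). In these genes the *sma-6* libraries also lay clear of both other genotypes.

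The remaining genes had lower levels and wider spreads. *C42C1.12* was at 23.7, 18.7, 19.8, 15.5 and 19.99 CPM in the *sma-6* libraries and between 8.19 and 10.7 CPM in the WT libraries, a fold of 2.10 (1.75 to 2.53). *Y39C12A.9* was at 13.01, 11.9, 11.6, 9.65 and 11.7 CPM in the *sma-6* libraries and between 3.16 and 6.38 CPM in the WT libraries, a fold of 2.40 (1.93 to 3.00). For both, no *sma-6* library overlapped a library of another genotype.

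*dnj-26* and *sre-14* were near the lower end of what the depth resolved. *dnj-26* was at 1.16, 1.67, 2.34, 2.29 and 1.64 CPM in the *sma-6* libraries, which rested on 22 to 52 counts a library, and between 0.411 and 1.07 CPM in the WT libraries. *sre-14* was at 1.27, 1.40, 1.58, 1.72 and 1.01 CPM in the *sma-6* libraries, on 21 to 39 counts, and between 0.352 and 0.730 CPM in the WT libraries. Their folds over WT were 2.28 (1.60 to 3.25) and 2.44 (1.67 to 3.57). The *sma-6* libraries stayed above all WT libraries, but some *sma-3* libraries reached into their range, with a highest *sma-3* value of 1.198 CPM for *dnj-26* and 1.29 CPM for *sre-14*.

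**Figure D1:**
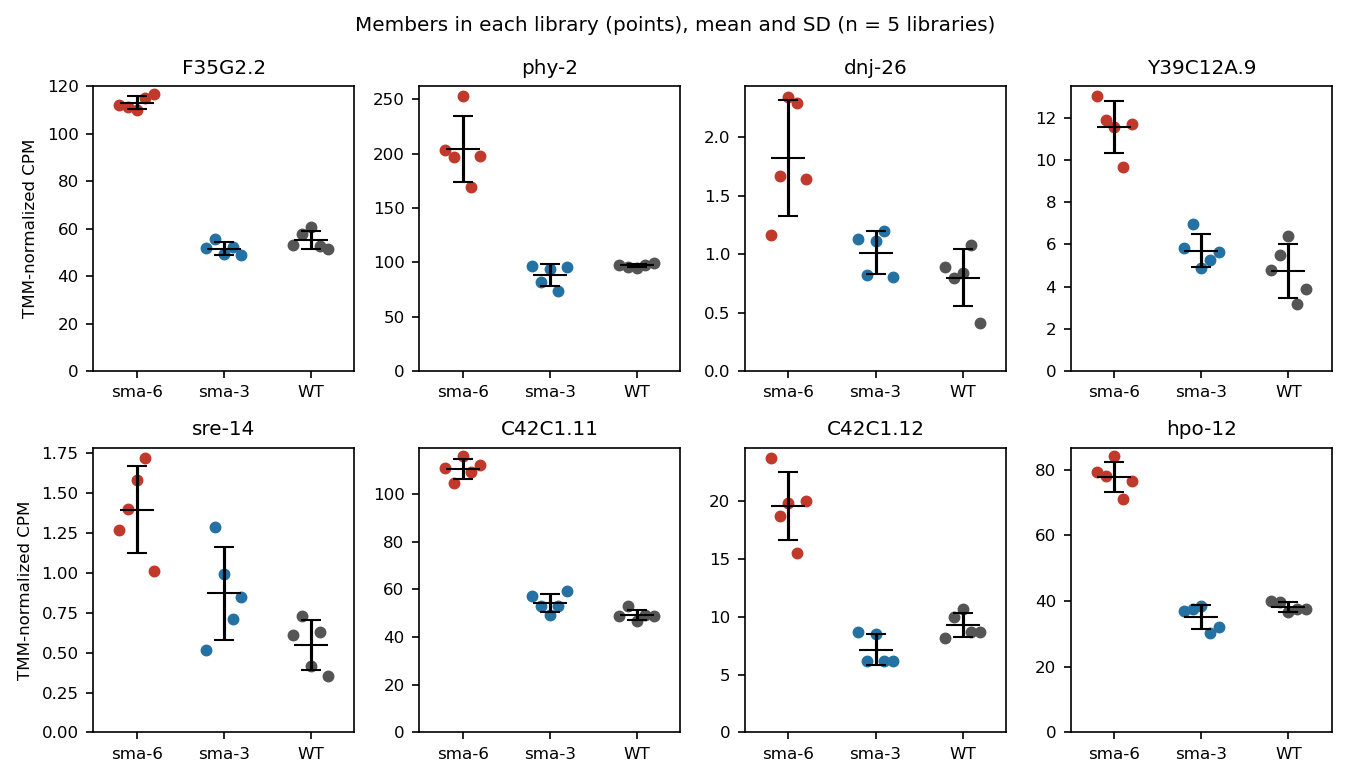
TMM-normalized CPM of the 8 chromosome IV genes in each of 15 libraries (points), with mean and SD (n = 5 libraries a genotype); each panel has its own axis from 0. The *sma-6* libraries lie above all WT libraries in every panel, and above all *sma-3* libraries in every panel except *dnj-26* and *sre-14*.

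Per kilobase of annotated exon, the WT level of these genes ran from 0.478 CPM in *sre-14* to 77.3 CPM in *F35G2.2*, a 162-fold span. The fold in *sma-6* mutants spanned 2.03 to 2.44 across the same genes, with a median of 2.17. A narrow span follows in part from the choice of genes near 2-fold. The 16 other tested genes of the longer stretch ran from 1.18-fold to 3.03-fold. For 7 of the 8 genes the 95% interval held 2-fold. All 8 were called higher in *sma-6* mutants, and in all 8 every *sma-6* library exceeded every WT library. Over all 13720 genes, 3.00% were called higher and 3.73% had every *sma-6* library above every WT library. Nothing is read from the comparison with those shares, since the rise was the ground for choosing the genes.

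Library by library, the median ratio of the 8 genes to their WT means was 2.17, 2.06, 2.40, 2.06 and 2.08 in *sma-6* replicates 1, 2, 3, 4 and 6. It was between 0.981 and 1.02 in the *sma-3* libraries and between 0.936 and 1.06 in the WT libraries. For the 6 genes above 1 CPM in WT, the *sma-6* medians were 2.17, 2.03, 2.28, 1.95 and 2.14. No *sma-6* library lacked the rise, and none carried it alone. Of the 40 ratios of a gene in a *sma-6* library, 30 lay between 1.5 and 2.5, 1 was below and 9 were above. The lowest, 1.45, was of *dnj-26* and the highest, 3.13, of *sre-14*, both under 1 CPM in WT and resting on few counts. Ratios above 2.5 also occurred in *phy-2*, *Y39C12A.9* and *C42C1.12*. *F35G2.2* was the steadiest, with ratios from 1.997 to 2.12. *phy-2* varied more, at 2.61 in replicate 3 and 1.74 in replicate 4, although its WT libraries differed by little.

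Whether 1 gene rose more than another was tested within libraries, on the log2 ratio of each pair of genes, which does not depend on library scaling apart from the pseudocount of 0.5 CPM. Of 28 pairs, 0 differed between *sma-6* and WT libraries at a Benjamini-Hochberg adjusted p under 0.05 in exact two-sided permutation tests over 252 splits, and 2 had an unadjusted p under 0.05. With 252 splits a single fully separated pair cannot go below an adjusted p of 0.222, so a count of 0 was close to fixed by the design. The smallest p was for *C42C1.11* against *hpo-12*. Its log2 ratio averaged 0.51 ± 0.078 in *sma-6* libraries and 0.36 ± 0.047 in WT libraries (SD, n = 5 each), so that *C42C1.11* rose further by 0.15 with a standard error of 0.041 (exact permutation p = 0.00794, the smallest that 252 splits allow, and adjusted p = 0.222). *F35G2.2* against *C42C1.11* differed by -0.13 with a standard error of 0.062 (exact permutation p = 0.0238, adjusted p = 0.333). The largest difference, -0.40 for *dnj-26* against *Y39C12A.9*, had a standard error of 0.29 (exact permutation p = 0.222). The pseudocount is close to the WT means of *dnj-26* (0.800 CPM) and *sre-14* (0.548 CPM) and shrinks their rise in these ratios. The fitted log2 fold changes, which do not use it, were 1.19 for *dnj-26*, 1.27 for *Y39C12A.9* and 1.29 for *sre-14*. *Y39C12A.9* against *sre-14* stood at 0.38 in the ratios, opposite in sign to the fit. The median absolute difference between pairs was 0.18 on the log2 scale. These tests use the comparison that selected the genes near 2-fold, which narrows such differences, and they show neither that the genes rose alike nor that they did not. Against the *sma-3* libraries, 12 of 28 pairs had an unadjusted exact permutation p under 0.05. After adjustment 0 passed, with a smallest adjusted p of 0.0741. The largest difference there was 0.92 and the median absolute difference 0.31 on the log2 scale. All of the 12 except *Y39C12A.9* against *C42C1.12* held *dnj-26* or *sre-14*, the genes that the pseudocount shrinks most. The *sma-3* libraries did not enter the choice, but the *sma-6* libraries did. These differences also hold the shifts of *sma-3* mutants from WT, from -0.38 for *C42C1.12* to 0.59 for *sre-14*. They do not show whether the rise in *sma-6* mutants was graded.

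The *sma-3* libraries did not enter the choice of genes. None of the 8 genes was called between *sma-3* mutants and WT by edgeR's quasi-likelihood test at an adjusted p under 0.05, while 14.6% of all genes were called there in either direction. At an unadjusted p under 0.05 there were 3, DESeq2 called 1 and limma-voom called 0. The log2 fold changes of *sma-3* mutants ran from -0.38 to 0.59. The lowest was *C42C1.12*, at 8.68, 6.14, 8.55, 6.17 and 6.19 CPM in *sma-3* libraries and 8.19, 9.996, 10.7, 8.72 and 8.68 CPM in WT libraries (edgeR adjusted p = 0.0641). It passed in DESeq2 (adjusted p = 0.0442) and when *sma-3* replicate 2, *sma-3* replicate 4 or *sma-6* replicate 4 was left out, with adjusted p = 0.0381, 0.0462 and 0.0454 in edgeR. The highest was *sre-14*, at 0.59 (SE 0.27, edgeR adjusted p = 0.151). *C42C1.11* was at 0.14 in *sma-3* mutants (SE 0.057, edgeR adjusted p = 0.104), and *phy-2* at -0.14 (SE 0.091, edgeR adjusted p = 0.339).

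Against *sma-3* mutants, a comparison that uses the same *sma-6* libraries, the fold of *sma-6* mutants had a median of 2.11 over the 8 genes, and 7 of 8 were called higher, where 12.7% of all genes were. The genes were chosen as high in those *sma-6* libraries, so these calls are no separate support. In log2 units the difference of *sma-6* from *sma-3* mutants was 1.45 ± 0.13 (SE) for *C42C1.12*, 1.21 ± 0.091 for *phy-2*, 1.15 ± 0.069 for *hpo-12* and 1.14 ± 0.056 for *F35G2.2*. *C42C1.11* and *Y39C12A.9* both stood at 1.02, with SE 0.057 and 0.15. *dnj-26* stood at 0.84 ± 0.23, and *sre-14*, the gene not called, at 0.69 ± 0.25. The order of the genes by size thus differed from that against WT, where *sre-14* was the highest at 1.29 and *hpo-12* the lowest at 1.02.

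The positions between and around the 8 genes were examined next, in a window of 25 tested genes on either side. Between *F35G2.2* and *hpo-12* lie 7 further tested genes, and 6 of them were called higher in *sma-6* mutants, where 3.00% of all tested genes were. The ribosomal protein gene *rpl-34* was at 1905, 1862, 1710, 1775 and 1747 CPM in *sma-6* libraries and at 1015, 983, 1049, 969 and 877 CPM in WT libraries, a fold of 1.84 (95% interval 1.62 to 2.08). *C42C1.4*, named *vps-8* in the annotation after a vacuolar protein sorting subunit, had a fold of 2.10 (1.92 to 2.29). *C42C1.13* (*vkmt-1*) had 1.94 (1.66 to 2.26), *C42C1.2* (*ppm-1.H*, a protein phosphatase of the PPM family) had 1.92 (1.64 to 2.25) and *tag-335* had 1.79 (1.66 to 1.92). The remaining called gene was *Y39C12A.1* (*mlt-3*, named for a role in molting), which rose by far less, at 1.32-fold (1.16 to 1.49). *F35G2.5* had a fold of 1.72 (1.22 to 2.44), an interval that held 2-fold, but was not called (edgeR adjusted p = 0.0569). It stood between 6.13 and 7.49 CPM in *sma-6* libraries. In WT libraries it stood between 2.33 and 7.27 CPM, with WT replicate 5 at the top of that range.

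The rise did not end with the 8 genes. The nearest tested genes on the left, *F35G2.1* and *nlr-1* (a neurexin-like receptor), had folds of 1.88 each (1.70 to 2.09 and 1.73 to 2.04). On the right, *erl-1* (an erlin homolog) had 1.92 (1.73 to 2.12) and *C42C1.8* had 2.31 (1.83 to 2.91). Genes farther right were singled out after their values were seen. *ufd-1*, a homolog of a ubiquitin fusion degradation factor, was at 114, 113, 110.4, 104 and 109 CPM in *sma-6* libraries and at 57.2, 53.2, 56.3, 54.7 and 57.1 CPM in WT libraries, a fold of 1.98 (1.84 to 2.12). *F19B6.1* beside it had a fold of 1.85 (1.66 to 2.06).

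Taken from the first to the last called gene, with limits set after the values were seen, the stretch runs from *nlr-1* to *F19B6.1*, chromosome IV 12170824 to 12336075. It holds 33 annotated protein-coding genes, 29 of them in the count table and 24 tested. The 16 tested genes outside the chosen 8 had a median fold of 1.88, and 14 of them were called higher and 14 were at least 1.5-fold higher, a size that 3.16% of all tested genes reached. Several of those genes rose as far as the chosen ones: *C42C1.4*, *C42C1.8* and *ufd-1* lie within or just under the range of 2.03 to 2.44, and *oac-58* lies above it. In the full window, 14 of 57 genes outside the chosen 8 were called higher, all 14 inside the stretch.

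The edges were set at the outermost called genes, so a step from a called to an uncalled gene there follows from the drawing. On the left, *nlr-1* stood at a log2 fold change of 0.91, and *F20B10.3*, whose end lies 1.61 kb from it, at -0.17 (SE 0.17, edgeR adjusted p = 0.619). On the right, *F19B6.1* stood at 0.89 and *best-22*, a bestrophin channel gene 13.9 kb away, at 0.13 (SE 0.051, edgeR adjusted p = 0.155). No tested gene lay between these last genes. The 23 window genes to the left of the stretch had a median log2 fold change of 0.01, with 0 called higher and 0 lower, though 4 had an unadjusted p under 0.05. The 18 to the right had a median of 0.09, with 0 called higher and 1 lower, and 6 had an unadjusted p under 0.05. Single genes ran from -0.20 to 0.43 on the left and from -0.83 to 0.58 on the right (SD over genes 0.15 and 0.35). In the *sma-6* libraries the median ratio to the WT mean was between 0.981 and 1.04 over these 41 flanking genes. It was between 1.81 and 1.94 over the 16 further genes of the stretch.

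**Figure D2:**
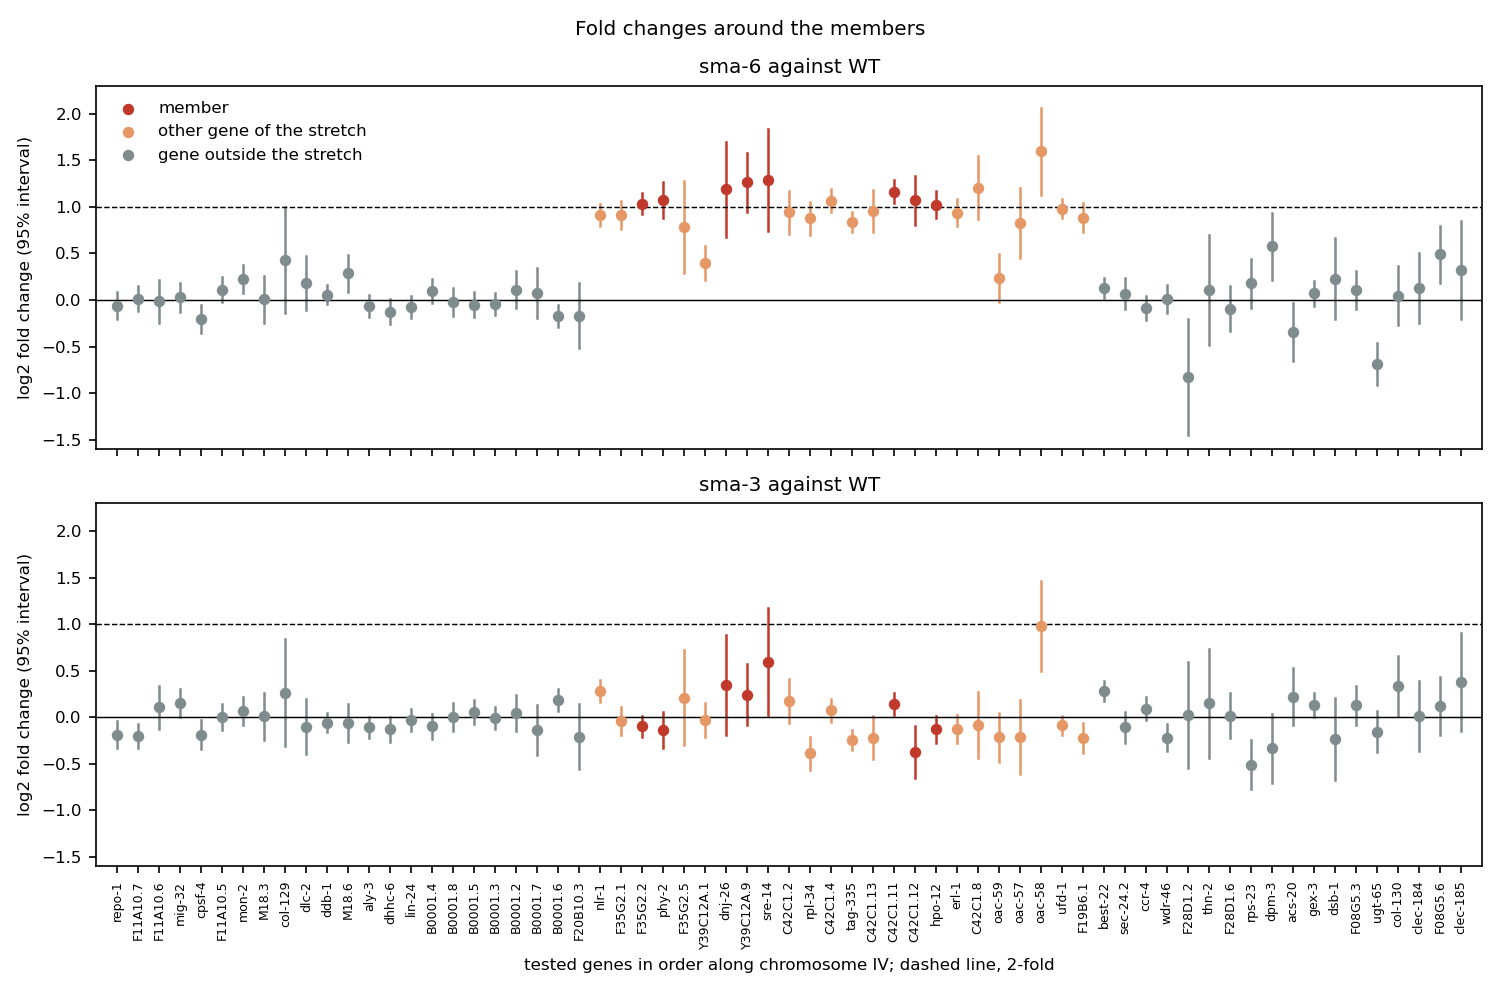
Log2 fold change (points) with 95% interval (lines) of 65 tested genes in order along chromosome IV, for *sma-6* mutants against WT (upper panel) and *sma-3* mutants against WT (lower panel); the dashed line marks 2-fold. In the upper panel the 24 genes of the stretch form a plateau with a median of 0.97 and edges at *nlr-1* and *F19B6.1*, while in the lower panel the same genes have a median of -0.09.

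Within the plateau, 3 genes stood away from the rest and are named for that reason. *Y39C12A.1* was at 37.8, 36.6, 40.7, 43.6 and 38.2 CPM in *sma-6* libraries and at 30.3, 29.7, 28.1, 29.3 and 32.2 CPM in WT libraries, without overlap but at 1.32-fold. *oac-59*, an O-acyltransferase homolog, was at 22.7, 20.95, 17.3, 14.1 and 21.96 CPM in *sma-6* libraries and at 14.3, 15.4, 15.9, 17.9 and 18.8 CPM in WT libraries, which overlap, with a fold of 1.18 (0.985 to 1.41). *oac-58*, of the same family, was the highest, at 3.07, 3.57, 3.87, 3.39 and 3.86 CPM in *sma-6* libraries against 1.33, 1.34, 0.575, 1.01 and 1.52 CPM in WT libraries, a fold of 3.03 (2.19 to 4.18). It was higher in *sma-3* mutants too, at 0.98 on the log2 scale (SE 0.23, edgeR adjusted p = 0.00998). *oac-57*, *oac-58* and *oac-59* are neighbours of 1 family, and reads that they share could not be separated here.

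Among genes measured with a standard error under 0.1, the 13 in the stretch had log2 fold changes from 0.40 to 1.17, with a median of 0.94 and an SD of 0.19. The 23 such genes in the flanks had a median of 0.02 and an SD of 0.12. The intervals of *tag-335* (1.66 to 1.92) and *C42C1.11* (2.06 to 2.44) did not meet; the genes of this pair were picked after their values were seen. Against *sma-3* mutants their order was turned round, with log2 differences of 1.08 (SE 0.051) for *tag-335* and 1.02 (SE 0.057) for *C42C1.11*. In *sma-3* mutants *tag-335* differed from WT by -0.24 and *rpl-34* by -0.39 (edgeR adjusted p = 0.00584 and 0.00700), and *nlr-1* by 0.28 (edgeR adjusted p = 0.00484). Across the 24 genes the log2 fold change of *sma-6* mutants had a Spearman rho of 0.03 with position, -0.14 with exon length and -0.36 with mean expression. These are descriptions over neighbouring genes measured in the same libraries.

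**Figure D3:**
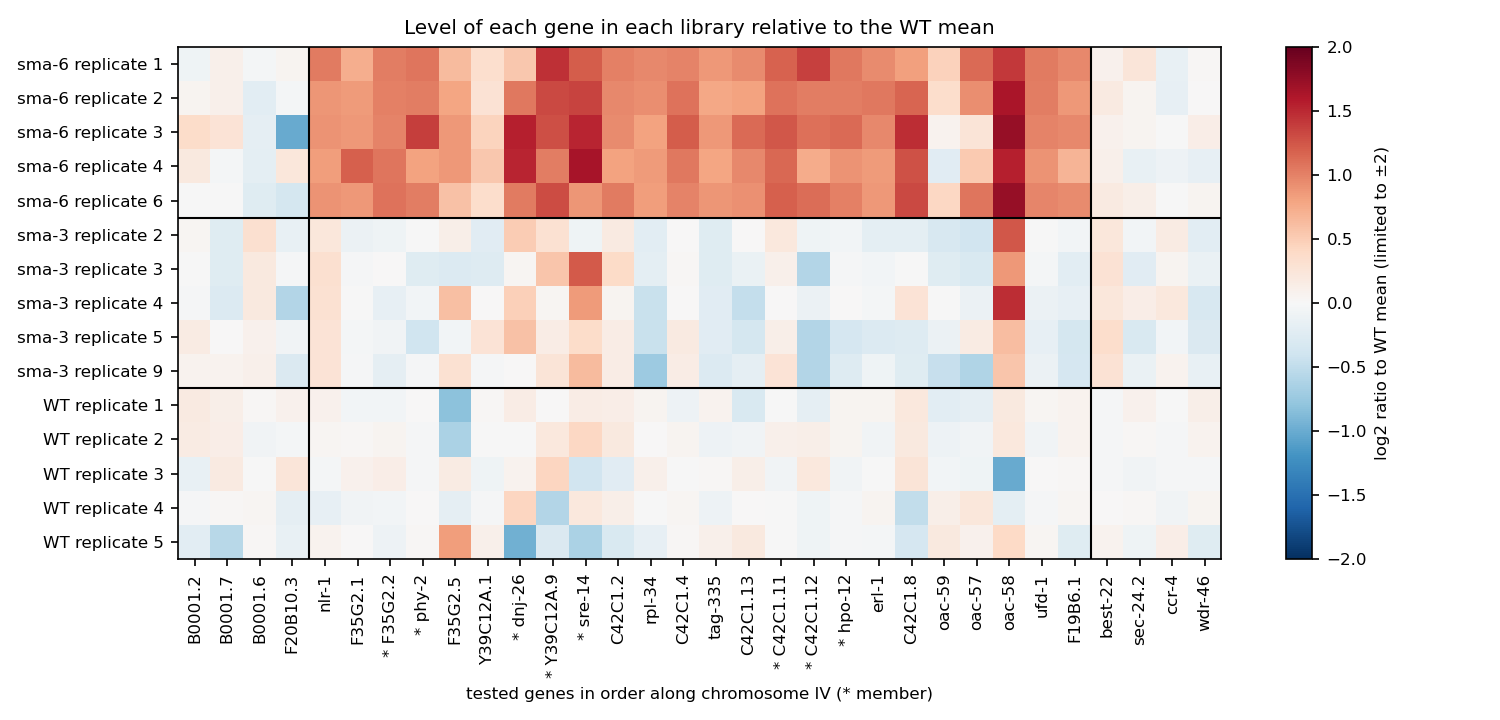
Log2 ratio of each gene in each library to its WT mean, on a colour scale limited to ±2, for the 24 genes of the stretch (between the vertical lines; asterisks mark the 8 chosen genes) and 4 tested genes on either side. All 5 *sma-6* libraries are raised across the stretch except at *oac-59*, where replicate 4 falls below the WT mean, and no *sma-3* or WT library shows the plateau.

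The 5 genes of the stretch that the table lists but that failed the low-count filter are *sre-15*, *sre-19*, *C42C1.3*, *C42C1.9* and *F19B6.3*. Each had more counts in the *sma-6* libraries than in the WT libraries, with sums of 58 and 26 for *sre-15*, 35 and 17 for *sre-19*, 18 and 8 for *C42C1.3*, 14 and 8 for *C42C1.9*, and 26 and 6 for *F19B6.3*. Summed, they had 151 counts in *sma-6* libraries, 75 in *sma-3* libraries and 65 in WT libraries. Scaled to depth, the ratio of *sma-6* to WT was 2.63 (95% Poisson interval 1.96 to 3.58, which covers counting error only).

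Over the whole genome there were 13515 runs of 9 consecutive tested genes. In the 16 runs wholly inside the stretch, between 8 and 9 of the 9 genes were called higher in *sma-6* mutants. The stretch was drawn by those same calls, so a high count inside it follows from how it was drawn. In the 13483 runs with no gene of the stretch, the count reached 4 at most. By median log2 fold change, 9 of those outside runs reached 1.5-fold, all on chromosome V, and the highest was 1.24, above the 1.07 reached inside the stretch. Neighbouring runs share most of their genes, so these 9 are not 9 separate places. None of those 9 runs held more than 3 called genes.

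**Figure D4:**
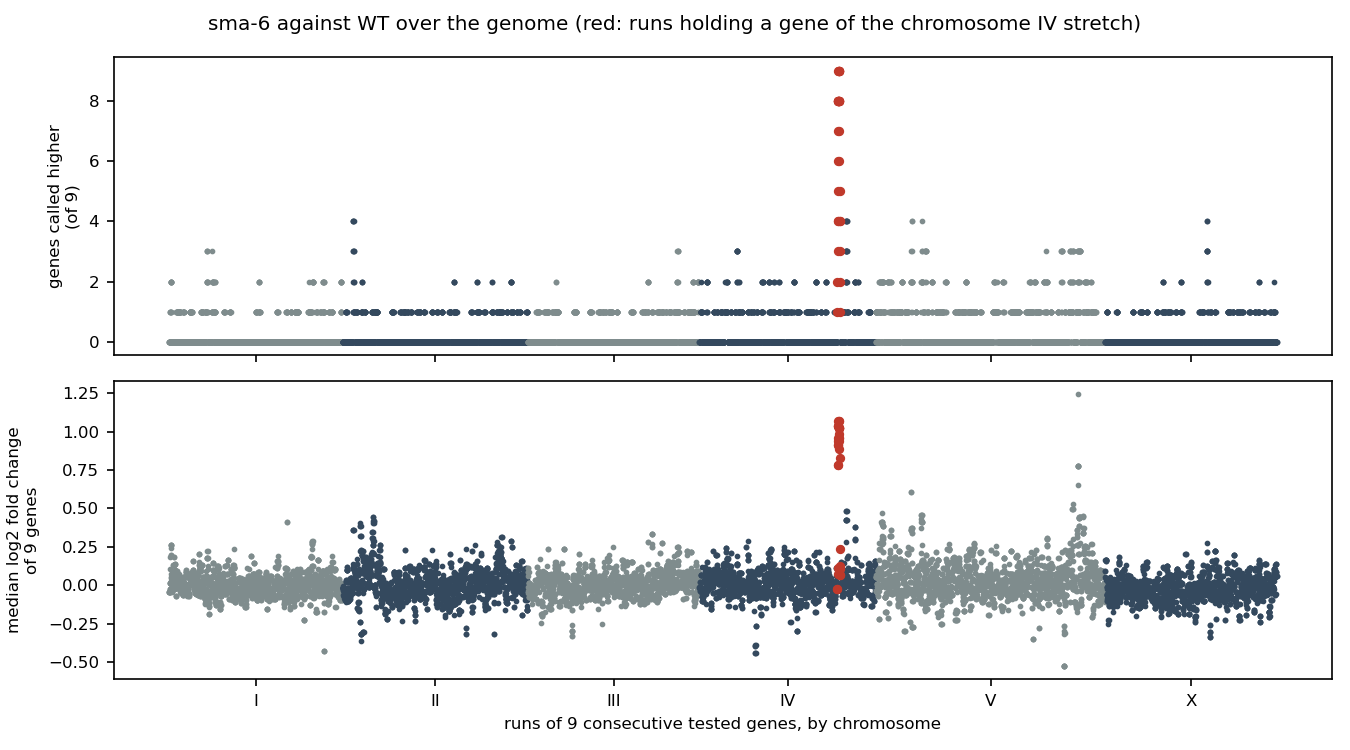
Number of genes called higher in *sma-6* mutants (upper panel) and median log2 fold change (lower panel) for each of 13515 runs of 9 consecutive tested genes, by chromosome; red points hold at least 1 gene of the chromosome IV stretch. Red points reach 9 called genes, and points elsewhere reach 4; in the lower panel 1 point on chromosome V, at 1.24, lies above the red ones.

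Relatives of these genes elsewhere in the genome were taken from lists set by name. The other subunits of collagen prolyl 4-hydroxylase and its protein disulfide isomerase relatives, *dpy-18*, *phy-4*, *pdi-1*, *pdi-2* and *pdi-3*, had log2 fold changes from -0.35 to 0.04 in *sma-6* mutants, and 0 of the 5 were called in edgeR (1 had an unadjusted p under 0.05). *dpy-18*, the partner catalytic subunit, was at 213 ± 21.7 CPM in *sma-6* mutants, 188 ± 31.0 CPM in *sma-3* mutants and 216 ± 13.3 CPM in WT (SD, n = 5 each; *sma-6* against WT -0.02, edgeR adjusted p = 0.933). *pdi-2*, whose protein is the partner beta subunit, was at 3059 ± 332 CPM in *sma-6* mutants and 2977 ± 112 CPM in WT (SD, n = 5 each). Of 28 other *dnj* genes 0 were called higher and 1 lower, with fold changes from -0.21 to 0.07 in log2 units. Of 6 other *sre* genes 0 were called in either direction (0 at an unadjusted p under 0.05), the highest being *sre-1* at 0.35. The medians of these families were -0.02, -0.08 and 0.15, against 0.01 over all tested genes.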

How the data were processed

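Stranded poly-A libraries of whole L2 larvae were sequenced, per the labels. The authors deposited raw counts per gene and library, and per the submitters' processing notes the tools included STAR 2.5.2b, featureCounts 1.5.2 and limma, with build WBcel235. The strand setting of the counting is not given in the sources used here. The deposited CPM equalled count over library total to within 0.0005 and served only for that check. The authors' deposited log2 fold changes, average log2 expression and p-values for *sma-3* mutants were not used.

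Counts were analysed in R 4.3.3 with edgeR 4.0.16: TMM factors, filterByExpr (minimum count 10, minimum total 15) and 1 quasi-likelihood fit (glmQLFit, glmQLFTest) to all 15 libraries with genotype as the factor. A gene was called where its Benjamini-Hochberg adjusted p over 13720 genes was under 0.05. Standard errors came from the F statistic, and 95% intervals from its t quantile. CPM in the text is TMM-normalized. Library totals of 16.5 to 48.3 M make 3 counts equal to 0.182 to 0.0621 CPM. Positions came from the WBcel235 annotation of Ensembl, matched for 16068 of 16259 genes; unmatched genes are in no run of neighbours. No genome sequence was used. The stretch was extended from the 8 genes while no more than 2 genes in a row failed the call.

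The genes, lists and comparisons were chosen with earlier results of these data known. Named genes were the 8 genes, the tested genes between them, the 2 nearest beyond each end, the collagen prolyl 4-hydroxylase list and the mutated genes; others were named after their values were seen. Alternatives were RLE factors, library totals, no filter, DESeq2 1.42.0, limma-voom (limma 3.58.1), fits to the compared genotypes alone, a replicate block, omission of each library, another pseudocount, other windows and a fold minimum. The fits were tested on simulated data. No 2 replicate libraries agreed within sampling noise (chi-square per degree of freedom 5.09 to 40.0 over 30 pairs).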

Additional observations from a re-analysis of the deposited data

Results flagged for a closer look

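Among 78 groups of 5 libraries, covering 26 named genes in 3 genotypes, 1 library lay far from the others of its group; chance gives about 1 in 20. It was *F35G2.1*, 2 genes to the left of *phy-2*, at 201 CPM in *sma-6* replicate 4, against 145 to 160 CPM in the other *sma-6* libraries and 83.2 to 92.7 CPM in WT. In the same library *phy-2* was at 169 CPM, the lowest *sma-6* value of that gene.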

How the results depend on the processing

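The median log2 fold change of the 8 genes in *sma-6* mutants against WT was 1.12 and stayed between 1.06 and 1.14 under 22 alternatives, and all 8 genes remained called higher under each of them. This comparison chose the genes from the same libraries, so neither the steady median nor the calls support the rise. Against *sma-3* mutants the median was 1.08, with 1.02 under library totals as the only scaling. The count of genes called in *sma-3* mutants among the 8 was 0, with 1 under library totals (*C42C1.11*, 0.22 on the log2 scale, adjusted p = 0.0249), 1 in DESeq2, and 0 to 2 when a library was left out. *C42C1.11* passed without *sma-3* replicate 4 (adjusted p = 0.0415). Against *sma-3* mutants the call of *dnj-26* was lost under the replicate block (adjusted p = 0.131), and *sre-14* was called in limma-voom and without WT replicate 5, *sma-3* replicate 3 or *sma-6* replicate 6. Genes outside the 8 called higher in the window numbered 14 to 18 over 25 alternatives. The count of pairs that differed in rise was 0 under all 12 alternatives, which says nothing of stability, since a single pair could not pass the adjustment. An unadjusted p under 0.05 was reached by 10 pairs with a pseudocount of 1, and by 12 pairs with a pseudocount of 0.5 when *sma-3* libraries took the place of WT (exact permutation tests).

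Over the whole table, the replicate block gave 531 genes for *sma-6* against WT (892 without it), 879 for *sma-3* against WT (1997) and 1089 for *sma-6* against *sma-3* mutants (3169). The count for *sma-3* against WT ran from 1156 to 3069 when a library was left out, with 1304, 1156, 1247 and 3069 without WT replicates 1, 2, 3 and 5 and 1249 without *sma-3* replicate 9. The labels do not say that equal numbers share a batch; deviations of same-numbered libraries had correlations from -0.12 to 0.13 over 11 pairs, and in 8 of 22 cases a library correlated best with its own number. The causes of these changes were not tested. Depth limits *dnj-26* and *sre-14* most, with at most 52 and 39 counts in any library.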

Other observations

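Families that the stretch touches were compared with their other members, on name prefixes added after the values were seen. *rpl-34*, inside the stretch, had a log2 fold change of 0.88 in *sma-6* mutants. The 74 other cytosolic ribosomal protein genes tested ran from -1.15 to 0.38 with a median of -0.04, and 0 of them were called higher. *rps-23*, farther right on chromosome IV and outside the stretch, stood at 0.18 (SE 0.13, edgeR adjusted p = 0.446). In *sma-3* mutants, where 44 of those 74 genes were called lower, *rpl-34* was lower as well, at -0.39. Of 21 O-acyltransferase homologs of the *oac* family outside the stretch, 3 were called higher in *sma-6* mutants, where 3.00% of all tested genes were. The median of the 21 was 0.08, against 1.60, 0.83 and 0.24 for *oac-58*, *oac-57* and *oac-59* inside the stretch.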
